A study of Danio rerio with 9 samples.

Results

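The 7 keratin genes krt4, krt5, krt8, krt15, krt18, cyt1 and cyt1l were followed in RNA of whole zebrafish embryos. They were chosen by gene name, and each name matched 1 of the 32312 genes in the deposited tables. All embryos were of the TU strain and were lysed at 24 h post fertilisation. The exposed embryos had received methanolic coal dust extract at 100 mg/L, carried in dimethyl sulfoxide (DMSO), at 4 h post fertilisation, and were then sorted by malformation. The libraries labelled P1 came from embryos with a deformed tail (n = 3), those labelled P2 from embryos with a deformed yolk (n = 2), and those labelled P3 from small embryos with an extruded yolk (n = 3). The control was 1 pooled library of embryos with a normal phenotype, and the sources used here do not say whether these embryos received DMSO. RNA came from 50 embryos per phenotype group.

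Keratins are the intermediate filament proteins of epithelial cells. A type I keratin binds a type II keratin, and the pairs assemble into the filaments that connect to desmosomes and make an epithelium resist stretch. The skin of the day-old zebrafish embryo is a bilayer: a flat outer periderm, which derives from the enveloping layer of the early embryo, covers a basal layer that rests on the basement membrane. krt4, krt5 and krt8 encode type II keratins, and cyt1, cyt1l, krt15 and krt18 encode type I keratins. Because RNA was taken from whole embryos, the data do not place a transcript in the skin, and fewer cells of a type and less RNA per cell cannot be told apart.

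Library totals ran from 12008832 counts in the control to 20810487, and 23315 to 24024 genes had a read. Levels are given as CPM (counts scaled to library size, here after TMM normalisation) or, between genes, as FPKM, which also divides by exonic length. Genes are said to rise or fall where the edgeR p, adjusted over the 19835 genes tested, was below 0.05, and changes are log2 fold changes ± standard error. The control has no replicate, so its spread was taken to equal the spread pooled from the phenotype libraries, and the 3 comparisons with the control share that library. Nothing in the labels says that replicate libraries came from separate clutches, so the p-values rest on the spread among these libraries alone, which could be technical. Exposure and malformation cannot be told apart in the comparisons with the control. The replicate 0 library of P3 stood apart from the other P3 libraries, with a chi-square per degree of freedom of 6.4 and 6.75 against them, compared with 3.28 between the other two. Results that rest on it are given with and without it.

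krt4 (ENSDARG00000017624) lies on chromosome 6 of the Zv9 build, at 39239362 to 39243891 on the minus strand. The other type II genes, krt5 (ENSDARG00000058371, 10280085 to 10284347) and krt8 (ENSDARG00000058358, 10355854 to 10360516), lie on the minus strand of chromosome 23. Their type I neighbour krt18 (ENSDARG00000018404) is at 10454077 to 10457982 on the plus strand of the same chromosome. cyt1 (ENSDARG00000092947, 5986623 to 5988852) and cyt1l (ENSDARG00000036832, 5980624 to 5982633) sit on the minus strand of chromosome 19, inside a group of 7 keratin genes that spans 56.1 kb. krt15 (ENSDARG00000036840) has a gene model of 1584 exonic bases spread over 11635467 to 11764765 on the minus strand of chromosome 11. That model contains the keratin gene krt99 and HAP1 on the same strand, and the model of cyt1 overlaps that of krt91. Reads from overlapping models and from close keratin copies may have been shared or split between genes, so the values of these genes are uncertain to that extent.

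Per length, krt4 was the most abundant of the 7 genes in every library and krt15 the least abundant. In the control, the deposited FPKM was 6204 for krt4, 1434 for cyt1, 1196 for cyt1l, 443 for krt8, 431 for krt5, 226 for krt18 and 7.41 for krt15. The same order held in 6 of the 9 libraries. In replicate 0 of P2 and replicates 1 and 2 of P3, krt18 stood above krt5. Within P2 and within P3 the FPKM of krt5 and krt18 overlapped (232 to 239 against 233 to 235 in P2, and 199 to 297 against 245 to 273 in P3). No other pair of neighbours in the order overlapped within a phenotype group. By raw counts krt4 ranked between 1 and 3 among all genes in every library, while krt15 ranked between 9570 and 17681.

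**Figure D1:**
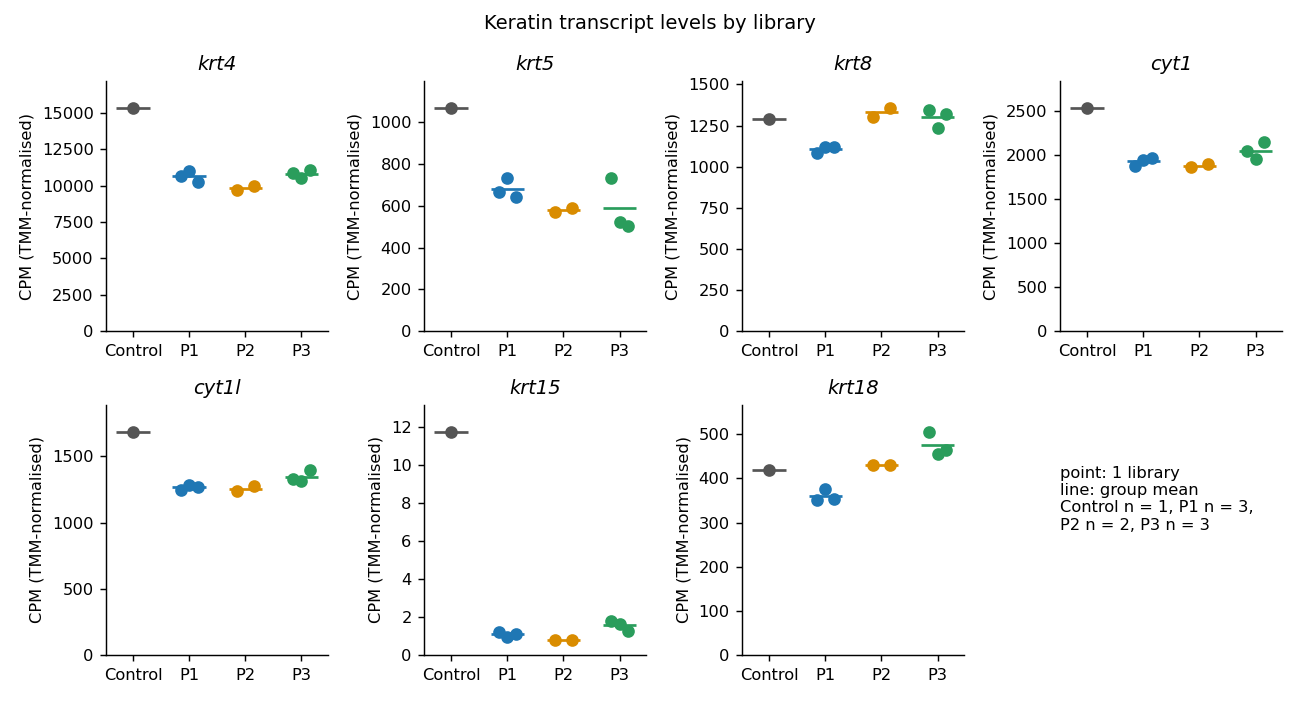
TMM-normalised CPM (vertical axes, each starting at 0) of the 7 keratin genes in 9 libraries, with 1 point per library and a line at each group mean. All phenotype libraries lie below the control for krt4, krt5, cyt1, cyt1l and krt15, whereas those of krt8 and krt18 lie on both sides of it.

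Most of the 7 keratin genes were lower in each malformation group than in the control. In P1, 6 of the 7 fell and 0 rose, while 9.19% of all tested genes fell and 7.08% rose (16.3% changed). In P2, 5 fell and 0 rose, while 15.6% of all tested genes fell and 14.2% rose (29.8% changed). In P3 the count was again 5 and 0, while 12.2% of all tested genes fell and 10.4% rose (22.6% changed). The median log2 fold change of the 7 genes was -0.41 in P1, -0.43 in P2 and -0.32 in P3, beside medians over all tested genes of -0.001, 0.004 and 0.014. At an unadjusted edgeR p below 0.05 the number higher was 0 in P1, 0 in P2 and 1 in P3 (krt18), and DESeq2 called 5 lower and 0 higher in each group. krt4, krt5, cyt1, cyt1l and krt15 were the 5 that fell in every group by edgeR. The 5 called by DESeq2 in P1 were not the same set, since DESeq2 did not call krt5 there.

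krt4, a type II keratin of the outer skin layer whose promoter is widely used to drive transgenes in zebrafish skin, was at 15357 CPM in the control. It was at 10657, 11026 and 10231 CPM in P1, at 9696 and 10011 CPM in P2, and at 10857, 10542 and 11086 CPM in P3. All 8 phenotype libraries lay far below the control and close to each other. krt4 fell by 0.53 ± 0.066 on the log2 scale in P1 (1.44-fold, edgeR adjusted p = 3.13e-05), by 0.64 ± 0.071 in P2 (1.56-fold, adjusted p = 3.03e-06) and by 0.50 ± 0.066 in P3 (1.42-fold, adjusted p = 2.59e-05). None of the 3 comparisons between phenotypes was called for krt4. The widest of them, P3 against P2, was 0.14 with a 95% interval of 0.02 to 0.25 and an adjusted p of 0.0814, or 0.0365 with no filter on low counts.

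krt5, a type II keratin known in mammals from the basal cells of stratified epithelia, was at 1069 CPM in the control. Its levels were 666, 732 and 644 CPM in P1, 569 and 590 CPM in P2, and 735, 523 and 504 CPM in P3. Every phenotype library was below the control, but the P3 libraries were split, with replicate 0 just above the highest P1 library and the others below P2. krt5 fell by 0.65 ± 0.137 in P1 (adjusted p = 0.00348), by 0.88 ± 0.146 in P2 (adjusted p = 0.000212) and by 0.86 ± 0.135 in P3 (adjusted p = 0.000162). No phenotype pair differed by the test with all libraries, where P3 against P1 gave -0.21 (adjusted p = 0.2) and P3 against P2 gave 0.018 (adjusted p = 0.93). Without replicate 0 of P3 the values were -0.41 (adjusted p = 1.51e-05) and -0.18 (adjusted p = 0.0438), so both calls turn on that library. P1 against P2 holds no P3 library, and its difference stayed at 0.23 without replicate 0 of P3. Its edgeR adjusted p went from 0.16 to 0.00358, in a fit that estimates the spread over all libraries together. By DESeq2 the fall of krt5 in P1 had an adjusted p of 0.0552.

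cyt1 and cyt1l encode type I keratins, and their genes are neighbours on chromosome 19. cyt1 was at 2538 CPM in the control, at 1878, 1948 and 1971 CPM in P1, at 1862 and 1896 CPM in P2, and at 2052, 1959 and 2148 CPM in P3. cyt1l was at 1687 CPM in the control, at 1249, 1287 and 1268 CPM in P1, at 1236 and 1275 CPM in P2, and at 1328, 1314 and 1400 CPM in P3. For both genes the control was the highest library, and the phenotype groups lay within a narrow band. cyt1 fell by 0.39 ± 0.069 in P1 (adjusted p = 0.000871), by 0.43 ± 0.074 in P2 (adjusted p = 0.000268) and by 0.31 ± 0.069 in P3 (adjusted p = 0.00391). cyt1l fell by 0.41 ± 0.067 in P1 (adjusted p = 0.000439), by 0.43 ± 0.071 in P2 (adjusted p = 0.000233) and by 0.32 ± 0.067 in P3 (adjusted p = 0.00194). The FPKM ratio of cyt1 to cyt1l was 1.2 in the control and between 1.18 and 1.24 in the other libraries.

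krt15, a type I keratin known in mammals from the basal layer of stratified epithelia, changed most in size. It had 141 counts in the control, 21, 14 and 17 counts in P1, 13 and 14 counts in P2, and 29, 26 and 26 counts in P3. Scaled for depth, that was 11.8 CPM in the control, 1.1 ± 0.138 CPM in P1 (SD, n = 3), 0.776 ± 0.022 CPM in P2 (n = 2) and 1.58 ± 0.272 CPM in P3 (n = 3). No phenotype library came near the control. krt15 was 10.6-fold lower in P1 (-3.41 ± 0.228, adjusted p = 2.19e-08), 15.1-fold lower in P2 (-3.91 ± 0.262, adjusted p = 7.07e-09) and 7.52-fold lower in P3 (-2.91 ± 0.214, adjusted p = 3.55e-08). The 2 genes inside its model did not move in this way. krt99 went from 31.4 CPM to means of 44.1, 44.6 and 31.9 CPM, and HAP1 from 11.3 CPM to 12.3, 12.8 and 13 CPM, with no call in any of the 3 comparisons. In the authors' deposited table the variance-corrected log2 ratio of krt15 was -0.80, -0.48 and -0.97 for P1, P2 and P3, far smaller than from the raw counts.

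krt8 and krt18 form the keratin pair of simple epithelia and of the early enveloping layer, and they took a different course. krt8 was at 1288 CPM in the control, at 1085, 1119 and 1121 CPM in P1, at 1302 and 1358 CPM in P2, and at 1343, 1236 and 1320 CPM in P3. krt18 was at 420 CPM in the control, at 352, 376 and 353 CPM in P1, at 431 and 430 CPM in P2, and at 506, 456 and 465 CPM in P3. For both genes the P1 libraries were below the control and below every P2 and P3 library. krt8 fell by 0.22 ± 0.070 in P1 (1.16-fold, adjusted p = 0.0415). With the replicate number as a block its adjusted p was 0.0609, and without replicate 0 or replicate 2 of P1 it was 0.0645 and 0.0718.

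krt18 was lower by nearly the same amount in P1 (-0.22 ± 0.075), but its adjusted p was 0.0535. In P2 the log2 fold change against the control was 0.046 for krt8 (95% interval -0.11 to 0.20) and 0.035 for krt18 (-0.14 to 0.21). In P3 it was 0.013 for krt8 (-0.14 to 0.16) and 0.18 for krt18 (0.017 to 0.34, adjusted p = 0.106). A fall of the size seen in P1 lies outside each of these intervals. Changes inside them are not excluded, in either direction except for krt18 in P3, whose interval lies above 0.

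**Figure D2:**
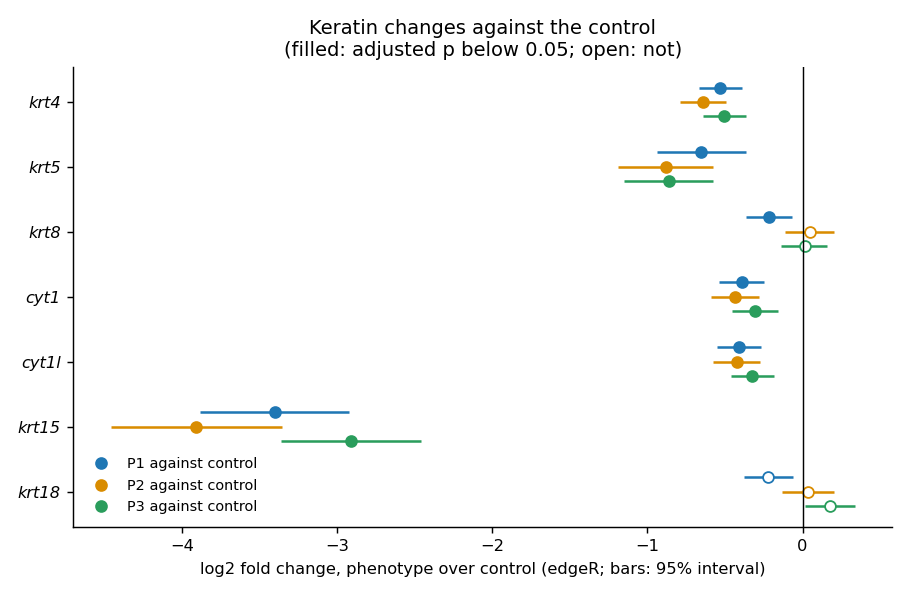
Log2 fold change of each phenotype over the control (horizontal axis) for the 7 keratin genes, with 95% intervals from edgeR as bars and filled points for an adjusted p below 0.05. krt15 lies between -3.91 and -2.91, and krt4, krt5, cyt1 and cyt1l between -0.88 and -0.31. krt8 in P2 and P3 and krt18 in P2 lie around 0, and krt18 in P3 lies at 0.18, with an interval above 0.

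Between the malformations, krt8 and krt18 were the ones among the 7 genes that differed between P1 and both other groups. Of the 7 genes, 2 were lower in P1 than in P2 and 0 were higher, beside 9.91% of all tested genes lower and 10.6% higher (20.5% changed). As a count, 2 changed of 7 was near the 20.5% over all tested genes. The counts were the same at an unadjusted p below 0.05 and by DESeq2. krt8 differed by -0.26 ± 0.056 (adjusted p = 0.00272) and krt18 by -0.26 ± 0.060 (adjusted p = 0.00528). The P1 and P2 libraries did not overlap for 5 of the 7 genes, including krt4, krt5 and krt15, which were not called. Lack of overlap therefore does not set krt8 and krt18 apart, and its share over all genes was not counted. With replicate 0 of P2 left out, krt18 was no longer called (adjusted p = 0.0586), and with replicate 1 of P2 left out neither was (0.0582 for krt8 and 0.0533 for krt18), though the differences kept their size. Of the 7 genes, 2 were higher in P3 than in P1 and 0 lower, beside 6.01% of all tested genes higher and 4.42% lower (10.4% changed). Here krt8 differed by 0.23 ± 0.050 (adjusted p = 0.00585) and krt18 by 0.40 ± 0.054 (1.32-fold, adjusted p = 9.51e-05). At an unadjusted p below 0.05, 1 gene (krt5) was also lower in P3 than in P1, and DESeq2 called 2 higher and 0 lower.

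krt15 was the 1 of the 7 genes that differed between P3 and P2, beside 11% of all tested genes higher and 10.5% lower in P3 (21.5% changed). As a count, 1 of 7 was near the share higher and below the share changed. krt15 was 2.00-fold higher in P3 (1.001 ± 0.289, adjusted p = 0.0195). None of the 7 was lower, by edgeR at an unadjusted p below 0.05 or by DESeq2, while 4 were higher at an unadjusted p below 0.05. DESeq2 did not call krt15, with an adjusted p of 0.0911. The difference was also not called when either P2 library was left out (adjusted p = 0.103 and 0.13). It rests on 13 and 14 counts in P2 against 26 to 29 in P3.

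**Figure D3:**
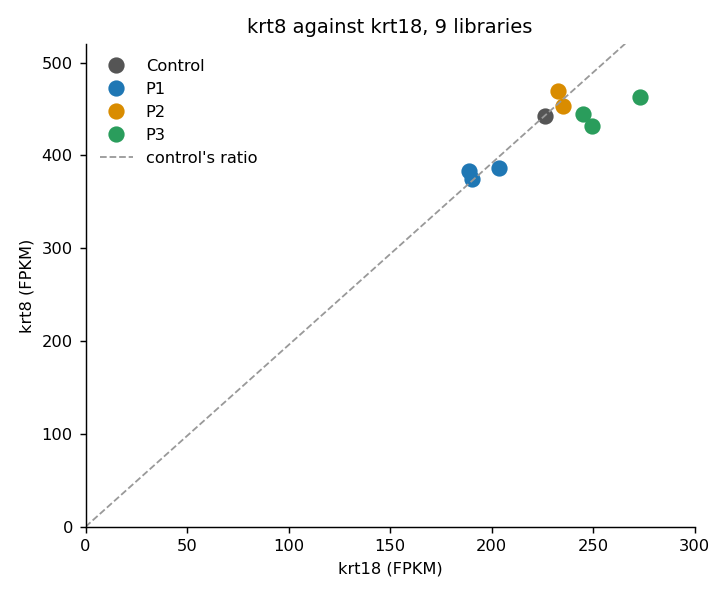
FPKM of krt8 (vertical axis) against krt18 (horizontal axis) in the 9 libraries, with 1 point per library and a dashed line at the control's ratio. The 3 P3 libraries lie below the line, at ratios between 1.69 and 1.81, and the P1 and P2 libraries lie near it.

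The balance of krt8 and krt18 was 1.96 in the control as a ratio of FPKM. It was 1.97 ± 0.064 in P1 (SD, n = 3), 1.97 ± 0.064 in P2 (n = 2) and 1.75 ± 0.061 in P3 (n = 3). The P3 ratios, from 1.69 to 1.81, did not overlap those of the other libraries, whose lowest was 1.90. Over all 7 genes, the summed FPKM of the type II genes over that of the type I genes was 2.47 in the control. It was 2.27 ± 0.085 in P1, 2.14 ± 0.018 in P2 and 2.13 ± 0.039 in P3. krt4 alone made up 62.4% of the summed FPKM of the 7 genes in the control and between 58.0% and 60.8% elsewhere. The type II to type I ratio leaves out the other keratin genes. Among those are the type I genes krt1-19e and krt17, at 173 and 133 FPKM in the control. It therefore does not give the balance over all keratins. All ratios in this paragraph are descriptions and carry no test.

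The 7 genes took 2.23% of all gene counts in the control, with a Wilson 95% interval of 2.22 to 2.24 that covers counting error only. Their share was 1.60% ± 0.054 in P1 (SD, n = 3), 1.54% ± 0.026 in P2 (n = 2) and 1.65% ± 0.028 in P3 (n = 3). All 8 phenotype libraries lay between 1.52% and 1.68%. Most of the difference lay in krt4, with 1.53% in the control and means of 1.06%, 0.991% and 1.08% in P1, P2 and P3. The type II genes went from 1.77% to 1.24%, 1.18% and 1.27%, and the type I genes from 0.464% to 0.356%, 0.359% and 0.386%.

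**Figure D4:**
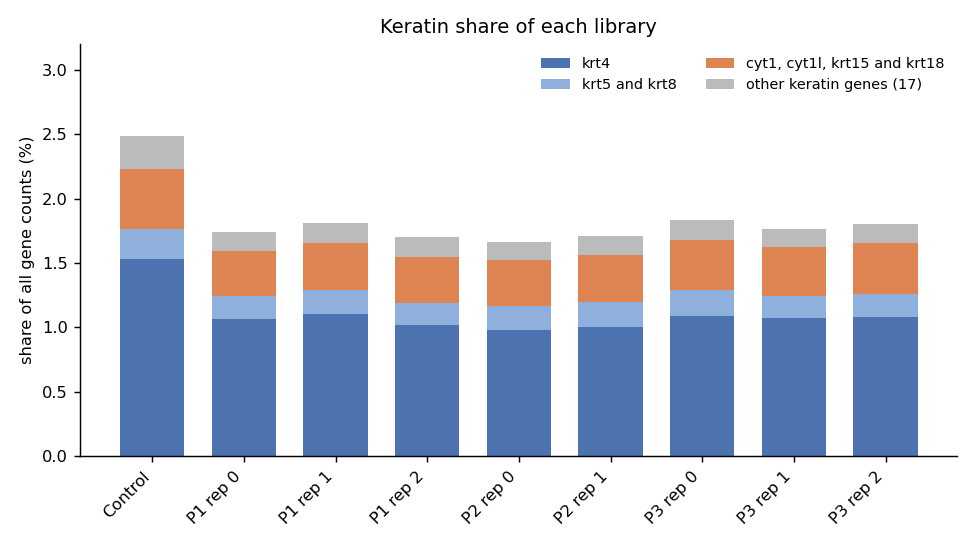
Share of all gene counts (vertical axis, percent) taken by keratin genes in each of the 9 libraries, stacked as krt4, krt5 with krt8, the 4 type I genes, and 17 other keratin genes. The control bar reaches 2.49%, and the phenotype bars reach between 1.66% and 1.84%.

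The other keratin genes of the tables moved the same way and, by their median, further. Of 17 further keratin genes 13 could be tested, and 10 of these fell in P1, 12 in P2 and 12 in P3, with 0 rises in each (0 also at an unadjusted p below 0.05 and by DESeq2). Over all tested genes, 9.19%, 15.6% and 12.2% fell in P1, P2 and P3. Their median log2 fold change was -1.14, -1.43 and -1.20 in P1, P2 and P3, beside -0.41, -0.43 and -0.32 for the 7 genes. The difference between the 2 sets was not tested. DESeq2 called 7, 10 and 9 of them lower. Their summed share of counts was 0.256% in the control and 0.155%, 0.142% and 0.147% in P1, P2 and P3.

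krt1-19e, a type I keratin that marks basal skin cells in zebrafish and is also known as krtt1c19e, was at 274 CPM in the control. Its means were 69.2 ± 0.874 CPM in P1 (SD, n = 3), 39 ± 1.63 in P2 (n = 2) and 37.3 ± 2 in P3 (n = 3). Its log2 fold change was -1.99 ± 0.070 in P1 (adjusted p = 3.42e-12), -2.81 ± 0.079 in P2 (adjusted p = 6.93e-14) and -2.88 ± 0.071 in P3 (adjusted p = 1.07e-14). It was also lower in P3 than in P1, by -0.89 (adjusted p = 7.2e-08), and higher in P1 than in P2, by 0.83 (adjusted p = 2.17e-07). P1 thus held its highest krt1-19e among the malformed groups, while it held the lowest krt8 and krt18.

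krt1-19d went from 41.4 CPM to 15.5, 6.61 and 11.2 CPM, krt97 from 131 CPM to 59.2, 43.3 and 53.7 CPM, and krt18b, the neighbour of krt4, from 83.4 CPM to 34.9, 31 and 30 CPM. krt17, a type I gene of the chromosome 19 group, went from 185 CPM to 105, 77.7 and 81.1 CPM, and KRT222 from 27.5 CPM to 17.8, 15.2 and 13.5 CPM. All of these falls passed the edgeR test in every group, but DESeq2 did not call that of krt17 in P1. krt91, whose model overlaps that of cyt1, fell as well (-0.51, -0.55 and -0.49). In P3, replicate 0 was above the other P3 libraries for krt92 (191 against 100 and 102 CPM) and krt17 (110 against 64.7 and 68.5 CPM), genes named here after their values were seen.

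**Figure D5:**
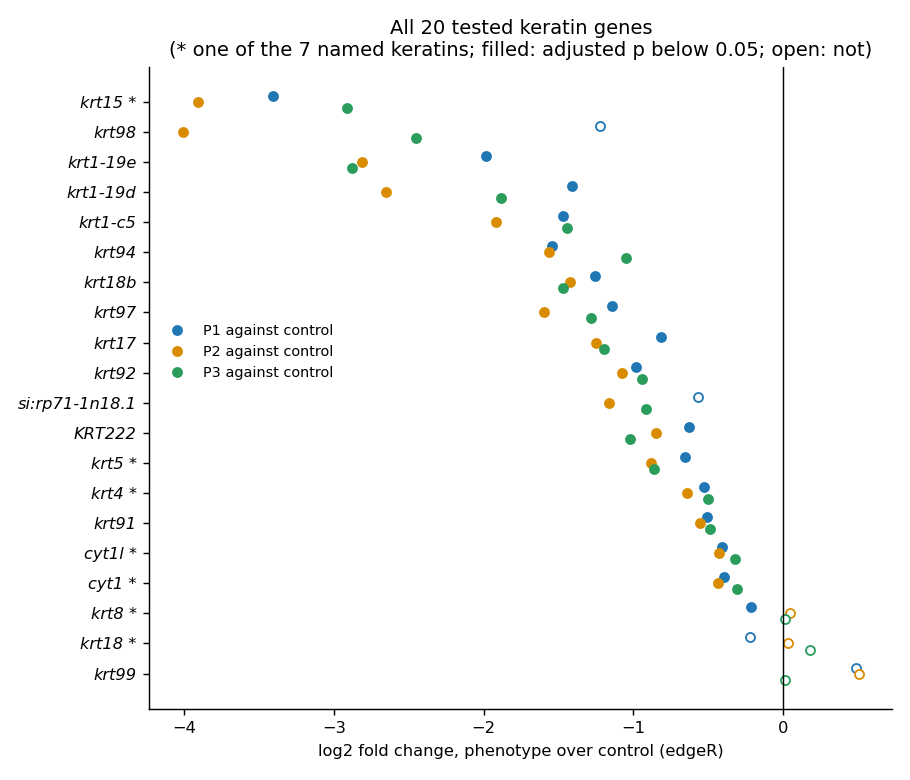
Log2 fold change of each phenotype over the control (horizontal axis) for all 20 tested keratin genes, ordered by their mean change, with the 7 genes chosen by name starred and filled points for an edgeR adjusted p below 0.05. krt15 and krt1-19e are among the lowest, krt98 rests on 1 to 18 counts per library, and krt8, krt18 and krt99 are at the other end.

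Other genes of the skin were read from lists, whose counts stand beside 9.19%, 15.6% and 12.2% of all tested genes lower and 7.08%, 14.2% and 10.4% higher in P1, P2 and P3. Of 27 genes of the periderm and enveloping layer, 10 fell and 0 rose in P1, 9 fell and 2 rose in P2, and 11 fell and 4 rose in P3. The 2 rises in P2 were below the share over all tested genes, and the 4 in P3 were near it. The median log2 fold change was -0.18, -0.077 and -0.20. icn, which encodes a calcium-binding protein of the periderm, was at 213 CPM in the control, and at means of 122, 201 and 120 CPM in P1, P2 and P3. It fell by 0.81 in P1 (adjusted p = 6.05e-06) and by 0.83 in P3 (adjusted p = 2.04e-06), was not called in P2 (-0.087, adjusted p = 0.522), and was lower in P1 than in P2 (-0.72, adjusted p = 1.71e-06). ppl, which encodes periplakin of the cell envelope, fell in P1, P2 and P3 (-0.68, -0.31 and -0.78), and so did icn2 (-1.12, -0.74 and -1.03). icn, ppl and icn2 had the smallest p of the list, and the genes that rose are not named here. krt92 and krt17 are both in this list and among the other keratin genes above.

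Of 24 genes of the basal epidermis, 14 fell and 3 rose in P1, 10 fell and 5 rose in P2, and 14 fell and 3 rose in P3. The 5 rises in P2 and 3 in P3 were near the 14.2% and 10.4% over all tested genes, while the 3 in P1 were above 7.08%. The median log2 fold change was -0.38, -0.24 and -0.41. krt1-19e is one of the 24. It, lamb4 and col17a1a had the smallest p of the list, and the genes that rose are not named here. The laminin gene lamb4, whose product lies in the basement membrane, fell in each group (-1.08, -1.49 and -1.37), from 64.5 CPM to 30.4, 23 and 24.9 CPM. col17a1a, which encodes a collagen of the hemidesmosome, went from 8.85 CPM to 1.63, 0.993 and 1.02 CPM and fell in each group.

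Keratin filaments end at desmosomes, and of 20 genes of desmosomes and epithelial junctions, 8 fell and 0 rose in P1, 4 fell and 1 rose in P2, and 7 fell and 3 rose in P3. Beside the 15.6% of all tested genes that fell in P2, the 4 of 20 there were near the background, whereas 9.19% and 12.2% fell in P1 and P3. pkp1, which encodes a plakophilin, fell in each group (-0.89, -1.07 and -0.63). dspa, which encodes desmoplakin, the protein that ties keratin to the desmosome, fell by 0.54 in P1 (adjusted p = 0.00143) and by 0.41 in P3 (adjusted p = 0.00668), and in P2 was at -0.068 (adjusted p = 0.682). pleca, which encodes a plectin linker, fell in P1, P2 and P3 (-0.70, -0.45 and -0.90), though DESeq2 did not call it in P2. pkp1, dspa and pleca had the smallest p of the list. The genes that rose are not named here, and the 3 rises in P3 stood beside 10.4% of all tested genes. Other intermediate filament genes also fell: 8, 11 and 10 of 18 in P1, P2 and P3, with 0 rises. This list is not confined to the skin. It holds neurofilament, desmin, lens filament and lamin genes, and some neurofilament genes are also in the neuron list below. Those with the smallest p were the neurofilament gene nefm (-0.76, -2.14 and -0.75), the nestin gene nes (-0.51, -0.99 and -0.65) and the lens gene BFSP1 (-1.46, -2.81 and -2.275).

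Markers of several other tissues were lower in the same groups as the keratins, the summed level of the hatching gland genes was higher in P2 and P3, and other lists were mixed. Their part in the keratin changes was not tested. The shares over all tested genes were again 9.19%, 15.6% and 12.2% lower and 7.08%, 14.2% and 10.4% higher in P1, P2 and P3. Of 16 skeletal muscle genes, 15 fell in P1 and all 16 in P2 and P3, and their summed level went from 40505 CPM in the control to between 28070 and 30235 in P1, 19967 and 20521 in P2, and 20162 and 27063 in P3. All 9 lens genes fell in each group, from 428 CPM summed to at most 131. Of 8 hatching gland genes, 0 rose and 1 fell in P1, 4 rose and 0 fell in P2, and 3 rose and 1 fell in P3. Their sum was 2946 CPM in the control, 2857 to 2942 in P1, 3724 to 3886 in P2 and 3352 to 3509 in P3. Counts of falls in P1, P2 and P3 were 6, 12 and 8 of 13 neuron genes, 4, 6 and 8 of 11 red cell genes, 3, 5 and 3 of 9 notochord genes and 4, 5 and 4 of 8 myeloid genes, with 0 rises in these lists. Ionocyte and mucous cell genes (21) had 5, 8 and 6 falls and 3, 3 and 4 rises, fin fold genes (13) 4, 3 and 4 falls and 3 rises in each, and endothelial genes (11) 3, 2 and 4 falls and 0, 4 and 2 rises. In P2, the 3 ionocyte and mucous cell rises were near the 14.2% over all tested genes. The 3 fin fold and 2 endothelial falls there were near the 15.6%. The 1 hatching gland fall in P1 and in P3 was near the 9.19% and 12.2%. The other counts were not tested against these shares. None of the matched marker genes was at 0 counts in the control except 1 of 10 hatching gland genes.

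How alike the 7 genes were across libraries was measured as the root mean square difference of log2 CPM, each gene centred on its own mean, over the 9 libraries. By this measure the nearest pair was cyt1 and cyt1l, at 0.021, followed by krt4 with cyt1l (0.068) and with cyt1 (0.073). krt8 and krt18 were 0.088 apart. krt5 was 0.195 from its nearest neighbour, krt4, and krt15 was 0.859 from its nearest, krt5. Among 10531 other genes, those nearest to krt4 were dlg1l (0.049), fam212aa (0.051) and aldh2a (0.052). Nearest to krt5 were loxl5b (0.097), sema3gb (0.107) and thy1 (0.121), and nearest to krt18 were tbc1d7 (0.038), GTSF1 (0.053) and eif4ebp3l (0.053). For krt8 they were IRF2BPL (0.044), ino80c (0.046) and CHST6 (0.048). cyt1 and cyt1l shared sra1, cacna2d3 and tuba8l3 as their nearest genes. krt15 had no near match: its nearest were grhprb (0.553) and the lens crystallin genes crygn2 (0.576) and crybb1l1 (0.591). These distances are descriptions over libraries that share depth and preparation.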

How the data were processed

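Poly(A) RNA of whole zebrafish embryos was sequenced in 9 libraries, prepared with the TruSeq RNA v2 kit from RNeasy extracts, per the labels' protocols. Reads were aligned with Novoalign to Zv9, per the submitters' processing notes. The sources used here do not give the counter, its strand setting or the annotation, so overlapping genes, also on opposite strands, were not told apart.

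Raw counts per gene and library, and FPKM (counts scaled by exonic length and library total), were deposited by the authors, per the file headers. The authors' variance-corrected log2 ratio and their score, a scaled negative log10 of an adjusted p, are also deposited. Other per-sample columns, variance-corrected and splice (20), were not used. Coordinates are 1-based, on Zv9. Library totals were 12008832 to 20810487, so 3 counts are 0.2498 to 0.1442 CPM.

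Genes were kept by filterByExpr (minimum count 10, minimum total 15) of edgeR 4.0.16 in R 4.3.3 (limma 3.58.1), leaving 19835. A quasi-likelihood model of group, without a block, was fitted to TMM-scaled counts of all libraries and tested by two-sided F tests with Benjamini-Hochberg adjustment over all genes at 0.05. The standard error is the log2 fold change over the square root of F. The procedure was tested on simulated counts.

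The members, the 14 gene lists, the tests and the alternatives were chosen with earlier results of these data known. Of other keratins, up to 6 with the smallest p against the control and at least 5 CPM in the highest group were named. From the periderm, basal epidermis, junction and other intermediate filament lists, the 3 with the smallest p were named. The remaining lists are given as counts or sums, with no gene named by this rule. Genes most like each keratin, 3 per gene, had to average 5 CPM and carry an assigned symbol, which left out several other keratins. The lists were read as counts, and those named in the report as examples follow the rule unless said otherwise. 2 keratinocyte-associated protein genes were left out of the keratins. Symbols come from the tables or the reference table of gene names. Promoter and protein sequences were not analysed here.

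Replicate numbers were shared between groups. Deviations of same-numbered libraries from their group means correlated at -0.107 to 0.018. In groups this small, deviations from the group mean constrain each other, so this cannot show whether the numbers pair libraries. The alternatives tried were other scalings (RLE, library totals), other filters (none, or 1 CPM in 2 libraries), DESeq2 1.42.0, fits limited to the groups compared, the replicate block, and leaving out each phenotype replicate.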

Additional observations from a re-analysis of the deposited data

Results flagged for a closer look

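Of the 21 comparisons between phenotypes (7 genes and 3 pairs), 5 showed a difference between malformations by the edgeR test of that difference. Over all tested genes, 20.5% changed between P1 and P2, 10.4% between P3 and P1 and 21.5% between P3 and P2. The 2 calls among 7 genes between P1 and P2 were near the share for that pair, and the 1 call between P3 and P2 was below its share. krt8 was lower in P1 than in P2 by a log2 difference of -0.263 (edgeR adjusted p = 0.00272) and higher in P3 than in P1 by 0.23 (adjusted p = 0.00585). krt18 was lower in P1 than in P2 by -0.257 (adjusted p = 0.00528) and higher in P3 than in P1 by 0.4 (adjusted p = 9.51e-05). krt15 was higher in P3 than in P2 by 1.001 (adjusted p = 0.0195). For krt8 and krt18 the groups did not overlap. Nor did the P1 and P2 libraries of krt4, krt5 and krt15, none of which was called in that pair. Between P3 and P1, the libraries of cyt1l and krt15 did not overlap either, and neither gene was called there. Lack of overlap therefore does not set krt8 and krt18 apart, and its share over all genes was not counted. krt15 rested on 13 to 29 counts per library.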

How the results depend on the processing

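For the log2 fold changes of the 7 keratins, 302 of 315 alternative values kept direction and call against the control (12 changed a call and 1 its sign), and 299 of 315 did between phenotypes (12 and 4). DESeq2 called fewer genes over the whole tables: 1913, 3769 and 2686 for P1, P2 and P3 against the control (3227, 5916 and 4482 by edgeR), 2424 for P1 against P2 (4072), 1246 for P3 against P1 (2069) and 2614 for P3 against P2 (4270). The cause was not tested. Leaving out 1 replicate gave 1725 to 5206, 1301 to 2156 and 1885 to 4654 genes for the last 3, and 0 to 3 and 0 to 2 of the 7 keratins for P1 against P2 and P3 against P2. For P1 against P2, 1 keratin was called without replicate 0 of P2 and 0 without replicate 1. For P3 against P2, DESeq2 called 0 keratins and no filter on low counts gave 2.

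Directions reversed for krt8 in P3 against the control (leave-one-out range -0.0114 to 0.0328, lowest without replicate 0 of P3), cyt1l in P1 against P2 (-0.0111 to 0.0358, lowest without replicate 0 of P2), krt4 in P3 against P1 (-0.0021 to 0.0538, lowest without replicate 2 of P1), and krt5 in P3 against P2 (-0.1754 to 0.1184, with -0.0085 without replicate 0 of P2 and the lowest without replicate 0 of P3). Without replicate 0 of P3, chosen after seeing the data, 7 of 13 other keratins (4 with it) differed between P3 and P1 and 5 (3) between P3 and P2. Of 27 periderm genes, 9 (5) differed between P3 and P1. With all libraries, 10.4% of all tested genes differed between P3 and P1 and 21.5% between P3 and P2, so the 3 keratins were near that share. Counts over all genes with 1 replicate left out are given above as ranges. krt5 in P1 lost its call by DESeq2 (adjusted p = 0.0552). Against the control, krt8 or krt18 gained a call in 3 leave-one-out values and in 5 values of the other alternatives. Among these were krt18 in P1 with RLE size factors (edgeR adjusted p = 0.0432) and with library totals alone (0.0496). With the replicate number as a block, 5 of the 7 keratins were called in P1, 5 in P2 and 5 in P3, and all genes called fell to 2705 in P1, with krt8 in P1 the 1 keratin call lost. The promoter search was not run. At 13 to 29 counts, differences of krt15 between phenotypes are limited by depth.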

Other observations

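In the authors' deposited table, the variance-corrected log2 ratio of krt4 was -0.54, -0.66 and -0.52 for P1, P2 and P3, and that of krt8 was -0.23, 0.021 and -0.020. These lie close to the edgeR values of the same genes, unlike those of krt15.

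krt99, a keratin gene inside the krt15 model, was at 45 CPM in replicate 0 of P3 and at 25 and 25.7 CPM in the other P3 libraries. Without replicate 0 of P3, an alternative added after seeing the data, krt99 was higher than the control in P1 (0.49, edgeR adjusted p = 0.00328) and in P2 (0.51, adjusted p = 0.00196), where with all libraries the adjusted p was 0.182 and 0.138. The log2 fold changes themselves were the same in both fits, 0.487 in P1 and 0.505 in P2. These comparisons hold no P3 library, but the spread is estimated over all libraries together. krt99 was also called in both groups with no filter on low counts and in a fit of the 2 groups alone.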
